A study of Mus musculus with 22 samples.

Results

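Slc20a1, Slc20a2 and Xpr1, the genes of the plasma membrane phosphate importers and of the phosphate exporter, were followed through ribosome profiling of mouse fibroblasts depleted of Denr. All 3 were found by symbol among the 10516 genes of the data set. The cells were NIH3T3, an established line of mouse embryonic fibroblasts, transduced with lentiviruses for Denr shRNA1 (3 lysates), Denr shRNA2 (3 lysates), scramble shRNA (3 lysates) or Gfp shRNA (2 lysates). Every lysate, controls included, thus came from cells that carried a lentiviral shRNA, had been selected with puromycin and were treated briefly with cycloheximide, which arrests elongating ribosomes, before harvest. The 6 lysates with a Denr shRNA are called knockdown, and the 5 with scramble or Gfp shRNA control. Each lysate, from its own dish, gave a library of ribosome-protected fragments (RPF-seq) and a library of total RNA (RNA-seq), and each gene has a value in RPKM, reads per kilobase of sequence scaled to the size of the library, for its coding sequence (CDS) and its 5′ UTR in each.

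Slc20a1 and Slc20a2 are sodium-dependent phosphate symporters that are expressed in most tissues and bring inorganic phosphate into the cell, and both also serve as cell surface receptors for gammaretroviruses. Xpr1 is the phosphate exporter of mammalian cells, itself first known as a receptor for xenotropic and polytropic murine leukaemia viruses, and its SPX domain binds inositol pyrophosphates, the molecules that report the phosphate status of the cell. Denr, with its partner Mcts1, acts in reinitiation, in which a ribosome that has translated a short upstream open reading frame (uORF) in the 5′ UTR resumes scanning and starts again at the main CDS. The comparison asks how translation on the CDS and on the 5′ UTR of these genes differs when Denr is depleted, and how Slc20a1, which the study itself lists among its Denr targets from these same libraries, compares with the other two. The values of Slc20a1 are for that reason no independent evidence of its direction.

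RPF-seq libraries held 10927303 to 21649878 reads on CDS and 5′ UTRs and RNA-seq libraries 8514080 to 20109700. Denr RNA was reduced by 75.6 to 80.9% with shRNA1 and by 88.5 to 91.4% with shRNA2 relative to the control mean. Of 8 fibroblast markers 7 were measured, with Vim at a mean of 4106 RPKM in control RNA, whereas Cdh1 (epithelial) was at 3.64 and Cdh5 (endothelial) at 0.736 RPKM, and the other 8 epithelial, endothelial and immune markers were not analysed here.

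The 5′ UTRs of the 3 genes differ in length and in their AUG-initiated uORFs. The annotation (GENCODE, build GRCm38) places Slc20a1 (ENSMUSG00000027397) at chr2:129198764-129211616 on the plus strand, Slc20a2 (ENSMUSG00000037656) at chr8:22476788-22569612 on the plus strand and Xpr1 (ENSMUSG00000026469) at chr1:155275701-155417415 on the minus strand. Slc20a1-201, the reference transcript with the longest 5′ UTR of its gene (499 nt over 2 exons), holds 5 uORFs of at least 9 nt, all of which end before the CDS. Each upstream AUG was counted on its own, and the uORFs of 15 and 14 codons share a frame and a stop codon. Slc20a2-201 (403 nt over 2 exons) holds 2, which also end before the CDS. Xpr1-201, the transcript with the longest CDS of its gene, has a 5′ UTR of 95 nt with 75.8% GC. Its single uORF of 50 codons runs 68 nt into the CDS in another frame. Xpr1-202 and Xpr1-203, also complete, have longer 5′ UTRs of 181 and 173 nt. Each holds that uORF and another that ends before the CDS. Among 10247 genes with a complete coding transcript and a 5′ UTR, 49.9% had an AUG-initiated uORF, and 7.41% had as many as Slc20a1 or more. The 5′ UTR of Slc20a1-201 was longer than that of 90.5% of these genes, that of Slc20a2-201 longer than that of 84.2% and that of Xpr1-201 longer than that of 25.1%. For each gene the transcript with the longest CDS was taken, so the rank of Xpr1 rests on its shortest 5′ UTR. Slc20a1-202 has a CDS as long as that of Slc20a1-201 (2046 nt with the stop codon), and the longer 5′ UTR was taken. The ranks of Slc20a1 thus rest on its longest 5′ UTR. Slc20a1-202, also complete, has a 5′ UTR of 409 nt with 4 uORFs. The median over the 10247 genes was 179 nt.

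The start sites of the CDS and of uORFs are shown, at which a scanning ribosome may start. Each is printed 5′ to 3′ with up to 10 bases before and 4 bases after the start codon, which is in capitals. The sequences were read from the reference transcripts.
Slc20a1 CDS start: acactagagaATGgaat
Slc20a1 uORF of 26 codons: ctaatccgccATGgaat
Slc20a1 uORF of 17 codons (Slc20a1-201): tttcctttggATGaact
Slc20a1 uORF of 4 codons (Slc20a1-201): agccggcggcATGctct
Slc20a2 CDS start: attttccaaaATGgcca
Slc20a2 uORF of 24 codons: gagaaaaactATGgaat
Slc20a2 uORF of 6 codons: aaactatggaATGcggt
Xpr1 CDS start: acgcggcaggATGaagt
Xpr1 uORF of 50 codons: gccggggcccATGtggg
The uORF of 26 codons starts at chr2:129199479-129199481 and that of 17 codons at chr2:129199450-129199452, and both start codons are shared by all 3 annotated coding transcripts of Slc20a1, whose upstream exons differ. The start of the 26-codon frame scored 10 of 13 for its likeness to the Kozak consensus, in which a purine 3 bases before the AUG, a G 6 bases before it and a G right after it count 3 points each and each C of the consensus 1 point. The CDS start of Slc20a1 scored 6, that of Slc20a2 8 and that of Xpr1 7, beside a median of 7 over all CDS starts. The 26-codon frame ends 159 nt before the CDS in Slc20a1-201 and Slc20a1-202, and the 24-codon frame of Slc20a2, at chr8:22535058-22535060 with a score of 7, ends 151 nt before its CDS. The 50-codon uORF of Xpr1 starts at chr1:155417317-155417319 and scored 5.

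The shortest uORFs are given whole, with start and stop codon in capitals, to show how little sequence such a frame can span.
Slc20a1-201, chr2:129198792-129198794 at its start codon: ATGctctctataTGA
Slc20a2-201, chr8:22535063-22535065 at its start codon: ATGcggtgtaccactgacTGA
Xpr1-202, chr1:155417397-155417399 at its start codon: ATGgcgggagggcggctcTGA
The stop of the Slc20a1 frame lies 456 nt and that of the Slc20a2 frame 200 nt before the CDS, while the Xpr1 frame occurs in Xpr1-202 and Xpr1-203 but lies upstream of the annotated start of Xpr1-201.

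**Figure D1:**
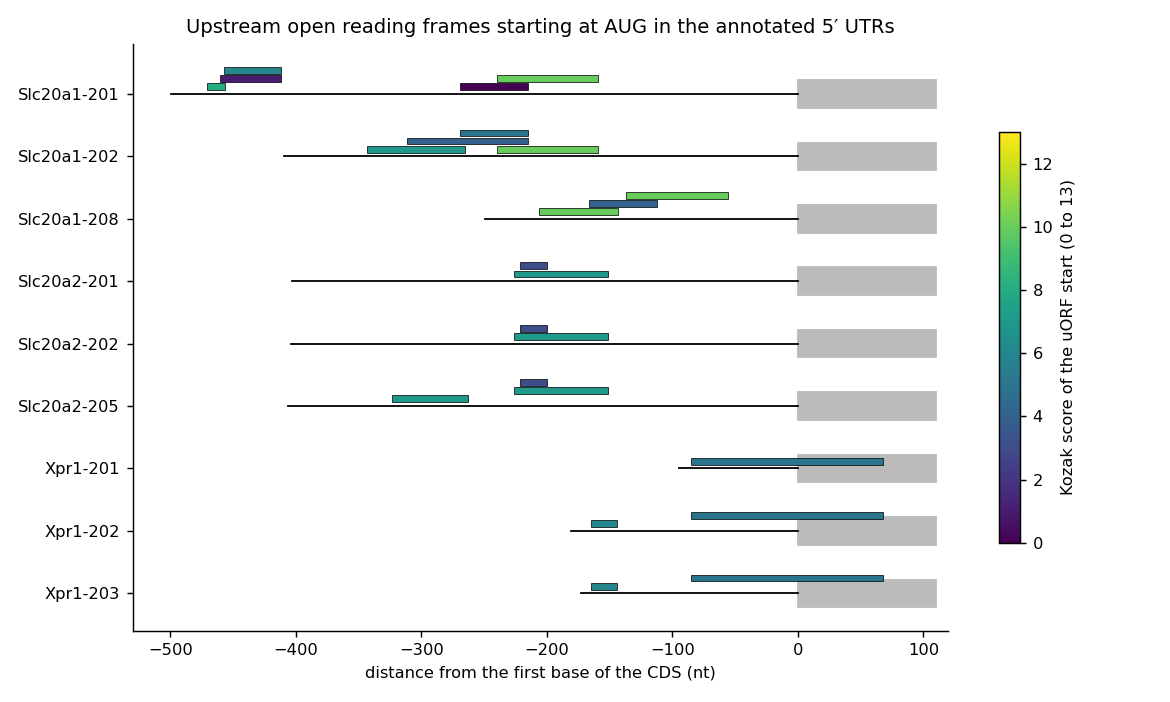
AUG-initiated uORFs in the annotated 5′ UTRs of the coding transcripts of each gene, by distance in nt from the first base of the CDS. Lines are 5′ UTRs, grey boxes the start of the CDS and coloured boxes uORFs, with the colour giving the Kozak score from 0 to 13. Counted by start codon, Slc20a1-201 carries 5 uORFs and Slc20a2-201 carries 2, all ending before the CDS, whereas the 50-codon uORF of Xpr1 overlaps it.

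The deposited values give the sum over a 5′ UTR, so footprints could not be assigned to single uORFs. The length behind the 5′ UTR value was 720 nt for Slc20a1 and 181 nt for Xpr1, in both cases the union over the 3 annotated coding transcripts. For Slc20a2 it was 491 nt, which is 88 nt longer than Slc20a2-201 and shorter than the union of 657 nt. Levels per length in the 5′ UTR of Slc20a1 therefore rest on bases that no annotated transcript carries together.

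In control cells the 3 genes had a different order in RNA, in footprints and in translation efficiency (TE), the ratio of CDS footprints to CDS RNA per lysate. CDS RNA was highest for Slc20a2 at 72.1 ± 8.95 RPKM (SD, n = 5), followed by Slc20a1 at 32.8 ± 1.88 and Xpr1 at 20.8 ± 3.17. CDS footprints were also highest for Slc20a2, at 25.6 ± 3.02 RPKM, but Xpr1 came next at 16.5 ± 0.706 and Slc20a1 was lowest at 9.07 ± 0.556. Neighbours in either order did not overlap in any control lysate. The log2 TE was -0.32 ± 0.21 for Xpr1, -1.49 ± 0.11 for Slc20a2 and -1.84 ± 0.12 for Slc20a1, again without overlap between neighbours. Only 5.47% of the 10516 genes had a lower control TE than Slc20a1, 9.32% a lower one than Slc20a2 and 39.0% a lower one than Xpr1. The importers thus both stood near the low end of the genes by TE.

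Slc20a1, the importer listed as a Denr target, had a lower TE in every knockdown lysate than in any control lysate. In RNA, its CDS stood at 34.3 and 29.9 RPKM with Gfp shRNA and at 33.3, 34.4 and 31.9 with scramble shRNA. Denr shRNA1 lysates had 46.1, 41.5 and 35.5 RPKM and Denr shRNA2 lysates 37.1, 35.5 and 32.95. Of the 6 knockdown lysates 5 were above all controls, with the highest values under shRNA1. The RNA difference between knockdown and control was 0.21 on the log2 scale (SE 0.088, limma, adjusted p = 0.249). In footprints on the CDS, Gfp shRNA lysates had 9.54 and 8.68 RPKM and scramble lysates 8.90, 8.48 and 9.77, against 8.82, 9.13 and 7.31 with Denr shRNA1 and 7.998, 7.72 and 7.60 with Denr shRNA2. These values rest on 161 to 405 footprints per library. The 3 shRNA2 lysates and a single shRNA1 lysate were below all controls, while the other two shRNA1 lysates lay inside their range, and the difference was -0.16 (SE 0.077, adjusted p = 0.215).

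The log2 TE of Slc20a1 was -1.84 and -1.77 with Gfp shRNA and -1.89, -2.01 and -1.70 with scramble shRNA. It was -2.37, -2.17 and -2.27 with Denr shRNA1 and -2.20, -2.19 and -2.10 with Denr shRNA2. The groups did not overlap, the lowest control lysate (scramble replicate 2) and the highest knockdown lysate (Denr shRNA2 replicate 3) being the nearest. Among all genes, 1.32% had every knockdown lysate below every control in TE. As a ratio, TE was 0.213 ± 0.0135 (SD, n = 6) in knockdown and 0.278 ± 0.0225 (n = 5) in control cells, a change of the mean of -23.1%. The difference was -0.38 on the log2 scale (SE 0.086, 95% interval -0.56 to -0.19), which ranked 64 of 10516 by p but did not pass the FDR of 0.1 (limma, adjusted p = 0.136). The study took its targets at an FDR of 0.1 with Xtail, which models raw read counts. Xtail was not run here, so the limma result does not repeat that test. In the main limma fit, both Denr shRNAs pooled, none of the 3 transporters passed the FDR of 0.1 in TE, RNA or CDS footprints. Over all genes, 0.475% were called in TE, 3.55% in RNA and 10.0% in CDS footprints. At an unadjusted p under 0.05, where 6.66% of all genes were in TE, 16.1% in RNA and 23.6% in CDS footprints, Slc20a1 was in TE and RNA and no transporter in CDS footprints. With limma-voom on the read counts recovered from the RPKM, the TE difference of Slc20a1 was -0.38 with an adjusted p of 0.0670, and over all alternative settings the adjusted p ranged from 0.0670 to 0.651.

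**Figure D2:**
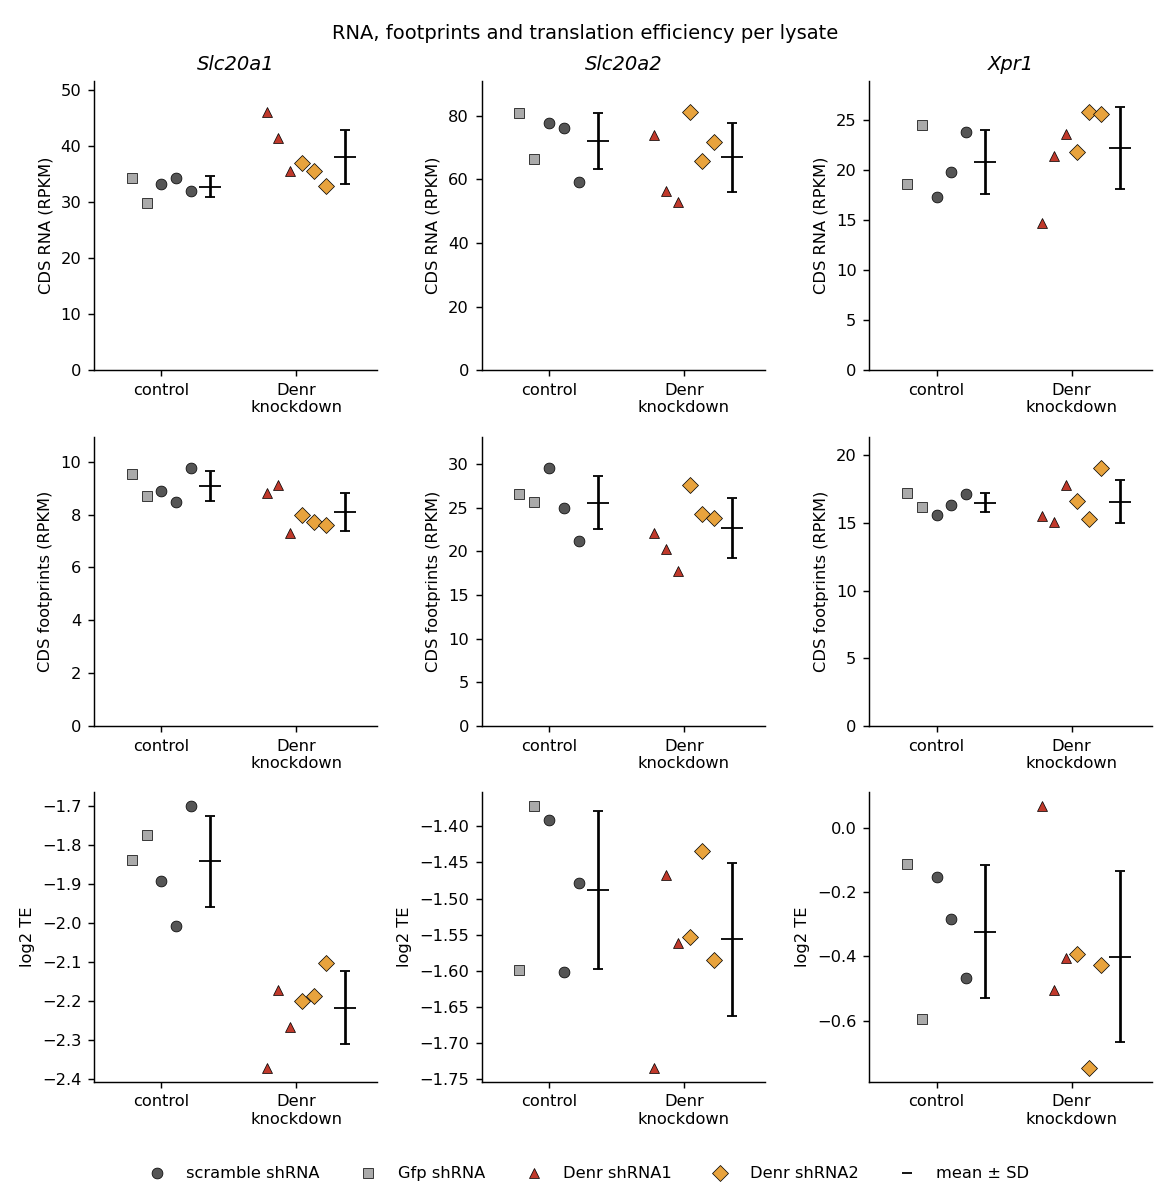
CDS RNA (RPKM, top), CDS footprints (RPKM, middle) and log2 TE (bottom) of Slc20a1, Slc20a2 and Xpr1 in each of 11 lysates, with the mean and SD of 5 control and 6 knockdown lysates; the TE axes of the genes differ in range. The TE of Slc20a1 lies between -2.37 and -2.10 in knockdown and between -2.01 and -1.70 in control lysates, while the groups overlap for Slc20a2 and Xpr1.

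Slc20a2, the other importer, did not separate the groups in any of these measures. Its CDS RNA was 80.8 and 66.4 RPKM with Gfp shRNA and 77.9, 76.1 and 59.3 with scramble shRNA, against 74.0, 56.3 and 52.8 with Denr shRNA1 and 81.2, 65.9 and 71.9 with Denr shRNA2. The lysates of shRNA1 replicates 2 and 3 were the lowest, and the highest of all was a knockdown lysate as well. CDS footprints were 26.6 and 25.6 RPKM with Gfp shRNA and 29.6, 25.0 and 21.2 with scramble shRNA, against 22.1, 20.3 and 17.8 with Denr shRNA1 and 27.6, 24.3 and 23.9 with Denr shRNA2. The log2 TE lay between -1.74 and -1.43 in knockdown (median -1.56) and between -1.60 and -1.37 in control lysates (median -1.48), so that the groups overlapped almost entirely. The differences were -0.11 in RNA (SE 0.12, adjusted p = 0.683), -0.18 in footprints (SE 0.11, adjusted p = 0.324) and -0.07 in TE (SE 0.085, 95% interval -0.25 to 0.12, adjusted p = 0.999).

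Xpr1, the exporter, showed the widest spread of TE among the 3 genes and no separation of the groups. Its CDS RNA was 18.7 and 24.5 RPKM with Gfp shRNA and 17.3, 19.9 and 23.8 with scramble shRNA, against 14.8, 21.5 and 23.6 with Denr shRNA1 and 21.9, 25.8 and 25.7 with Denr shRNA2. Footprints on its CDS varied less, from 15.6 to 17.2 RPKM in control and from 15.1 to 19.1 in knockdown lysates. The log2 TE ran from -0.60 to -0.11 in control lysates (median -0.28) and from -0.75 to 0.07 in knockdown lysates (median -0.41). Both ends of the range were knockdown lysates, the upper Denr shRNA1 replicate 1, in which Xpr1 RNA was lowest, and the lower Denr shRNA2 replicate 2, in which it was highest. The differences were 0.08 in RNA (SE 0.14, adjusted p = 0.829), 0.0026 in footprints (SE 0.072, adjusted p = 0.988) and -0.08 in TE (SE 0.14, 95% interval -0.37 to 0.22, adjusted p = 0.999). The lower bound of the Xpr1 TE interval lies next to the value found for Slc20a1, so a fall of slightly smaller size in Xpr1 is within this interval.

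To set Slc20a1 against the other two, their difference was taken within each lysate, which removes what the genes of a lysate share. The log2 TE of Slc20a1 minus that of Slc20a2 was -0.24 and -0.40 with Gfp shRNA and -0.50, -0.40 and -0.22 with scramble shRNA. With Denr shRNA1 it was -0.64, -0.70 and -0.70, and with Denr shRNA2 -0.65, -0.75 and -0.52. Every knockdown lysate was below every control, although the nearest lysates, Denr shRNA2 replicate 3 and scramble replicate 1, were close. The gap between the importers in TE was larger in knockdown than in control lysates by 0.31 on the log2 scale (knockdown minus control -0.31, exact two-sided permutation test of knockdown against control labels, p = 0.00433, adjusted over 4 such tests 0.0173). The smallest p that this design allows was 0.00216. Since Slc20a1 was listed as a target from these libraries, the test describes them and is not an independent check.

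Against Xpr1, the same difference ran from -2.44 to -1.44 in knockdown and from -1.74 to -1.18 in control lysates. Knockdown minus control was -0.30 here too, but the groups overlapped and the test did not pass (exact permutation p = 0.156, adjusted 0.312). Without Denr shRNA1 replicate 1, the lysate with the lowest difference, it was -0.17 (adjusted exact p = 0.508), and without Gfp shRNA replicate 2 -0.21 (adjusted exact p = 0.676). With shRNA1 alone it was -0.47 and with shRNA2 alone -0.12 (adjusted exact p = 0.286 and 0.690). A difference between Slc20a1 and Xpr1 in the TE response was thus not detectable at this spread.

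**Figure D3:**
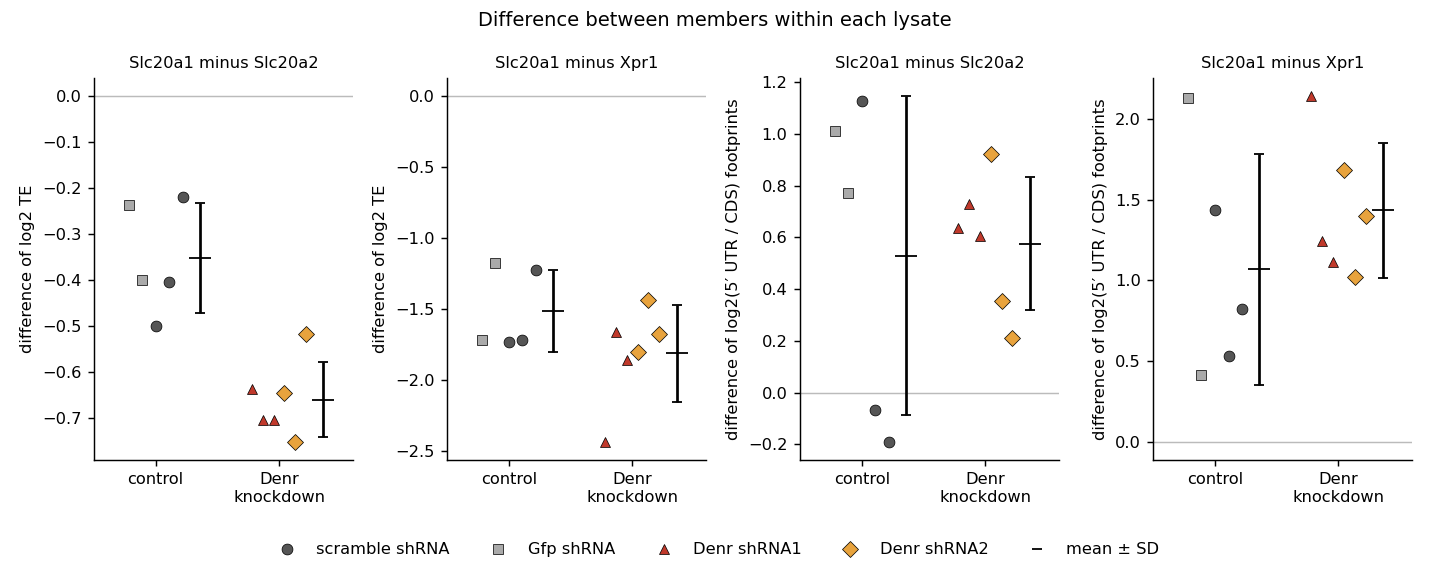
Difference between Slc20a1 and Slc20a2 or Xpr1 within each lysate, in log2 TE (left pair of panels) and in log2 of 5′ UTR over CDS footprints (right pair), with the mean and SD of 5 control and 6 knockdown lysates. For TE against Slc20a2, knockdown lysates lie between -0.75 and -0.52 and controls between -0.50 and -0.22; in the other panels the groups overlap.

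Footprints on the 5′ UTR, relative to those on the CDS, were higher in every knockdown lysate than in any control lysate for Slc20a1 and rose by the test applied. The log2 ratio of 5′ UTR to CDS footprints per length was -0.15 and 0.28 with Gfp shRNA and 0.36, 0.10 and -0.06 with scramble shRNA. It was 0.46, 0.77 and 0.87 with Denr shRNA1 and 0.63, 0.59 and 0.43 with Denr shRNA2. The nearest lysates were scramble replicate 1 and Denr shRNA2 replicate 3, and 4.83% of the 5175 genes with enough 5′ UTR footprints (at least 20 in 9 of 11 libraries) showed such a separation upwards. The increase was 0.52 on the log2 scale (SE 0.15, 95% interval 0.20 to 0.84, limma, adjusted p = 0.0623), in a comparison in which 18.1% of the genes were called and the median gene increased by 0.33. In read shares, the 5′ UTR held 24.1 to 31.2% of the footprints of Slc20a1 in control and 32.3 to 39.4% in knockdown lysates. The exact binomial 95% interval of the highest control share was 25.99 to 36.8% and that of the lowest knockdown share 27.3 to 37.7%, so these nearest lysates did not differ beyond counting error, and intervals cover counting error only.

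The call for Slc20a1 was lost when the 5′ UTR filter was an RPKM of at least 1 (adjusted p = 0.104) and without Denr shRNA1 replicate 2 (0.141) or replicate 3 (0.109), without Denr shRNA2 replicate 2 (0.136) or without Gfp shRNA replicate 1 (0.133). In RNA the corresponding ratio of 5′ UTR to CDS was between -0.93 and -0.32 in control and between -0.84 and -0.71 in knockdown lysates, with a difference of -0.14 (SE 0.10, 95% interval -0.37 to 0.080, adjusted p = 0.960), opposite in sign to that in footprints. For the 5′ UTR footprints alone, Slc20a1 had 8.61 to 11.5 RPKM in control and 10.3 to 15.7 in knockdown lysates, a difference of 0.36 (SE 0.16, adjusted p = 0.123) beside a median of 0.30 over the genes tested, of which 23.1% were called.

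Slc20a2 had a difference of similar size in the 5′ UTR ratio but a wider spread among controls. Its log2 ratio was -1.16 and -0.50 with Gfp shRNA and -0.77, 0.16 and 0.13 with scramble shRNA. With Denr shRNA1 it was -0.18, 0.04 and 0.27 and with Denr shRNA2 -0.29, 0.24 and 0.22. Scramble replicates 2 and 3 thus lay among the knockdown lysates, while the other 3 controls were below all of them. The difference was 0.48 (SE 0.22, 95% interval 0.0040 to 0.95, adjusted p = 0.148), and against scramble shRNA alone 0.21 (adjusted p = 0.537). Without scramble replicate 2 it was 0.62 (adjusted p = 0.0844) and without scramble replicate 3 also 0.62 (adjusted p = 0.0999). Its 5′ UTR held 10.0 to 21.9% of its footprints in control and 16.9 to 23.1% in knockdown lysates. In RNA, the ratio of Slc20a2 differed by -0.13 (SE 0.12, adjusted p = 0.960). Its 5′ UTR footprints over 5′ UTR RNA were higher by 0.53 in the mean of knockdown lysates, 4 of which were above every control. For Slc20a1 this difference was 0.29, with no knockdown lysate above every control, and neither gene passed the FDR of 0.1 by limma. The median difference over the 5175 genes tested was 0.25. The share of all genes with 4 knockdown lysates above every control was not counted.

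Xpr1 had few footprints in its short 5′ UTR, 12 to 36 per library, and missed the read minimum, which it met in 8 of 11 libraries. A count of 12 has an exact Poisson 95% interval of 6.20 to 20.96. Its log2 ratio of 5′ UTR to CDS was between -2.28 and -0.14 in control and between -1.68 and -0.24 in knockdown lysates, and the 5′ UTR held 1.71 to 7.26% and 2.59 to 6.81% of its footprints, respectively. With the RPKM filter, which it passed, the difference was 0.16 (SE 0.36, 95% interval -0.63 to 0.94, adjusted p = 0.771), an interval that also holds the values of both importers. In RNA, where its 5′ UTR had 13 to 63 reads per library, the ratio was higher by 0.26 in the mean of knockdown lysates, all 6 of which were above the control mean although the groups overlapped, and 5′ UTR footprints over 5′ UTR RNA differed by -0.18, both given without a test.

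Taken within lysates, the 5′ UTR ratio of Slc20a1 did not separate from that of the other two in its response. Slc20a1 minus Slc20a2 was 0.53 ± 0.62 (SD, n = 5) in control and 0.58 ± 0.26 (n = 6) in knockdown lysates, a difference of 0.05 (exact permutation p = 0.870, adjusted 0.870). Slc20a1 minus Xpr1 was 1.07 ± 0.71 in control and 1.43 ± 0.42 in knockdown lysates, a difference of 0.37 (exact permutation p = 0.307, adjusted 0.410). This value turned on single lysates, being 0.63 without Gfp shRNA replicate 1, 0.20 without Gfp shRNA replicate 2, 0.22 without Denr shRNA1 replicate 1 and 0.23 without scramble replicate 2, and passed in none of them. Between the importers, the response differed past the test in the TE of the CDS, the measure by which Slc20a1 was listed from these libraries. No difference was detectable in the 5′ UTR ratio. There the gap between the importers had a control SD of 0.62, against 0.12 in TE. The outcomes of these tests thus cannot be set against each other.

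**Figure D4:**
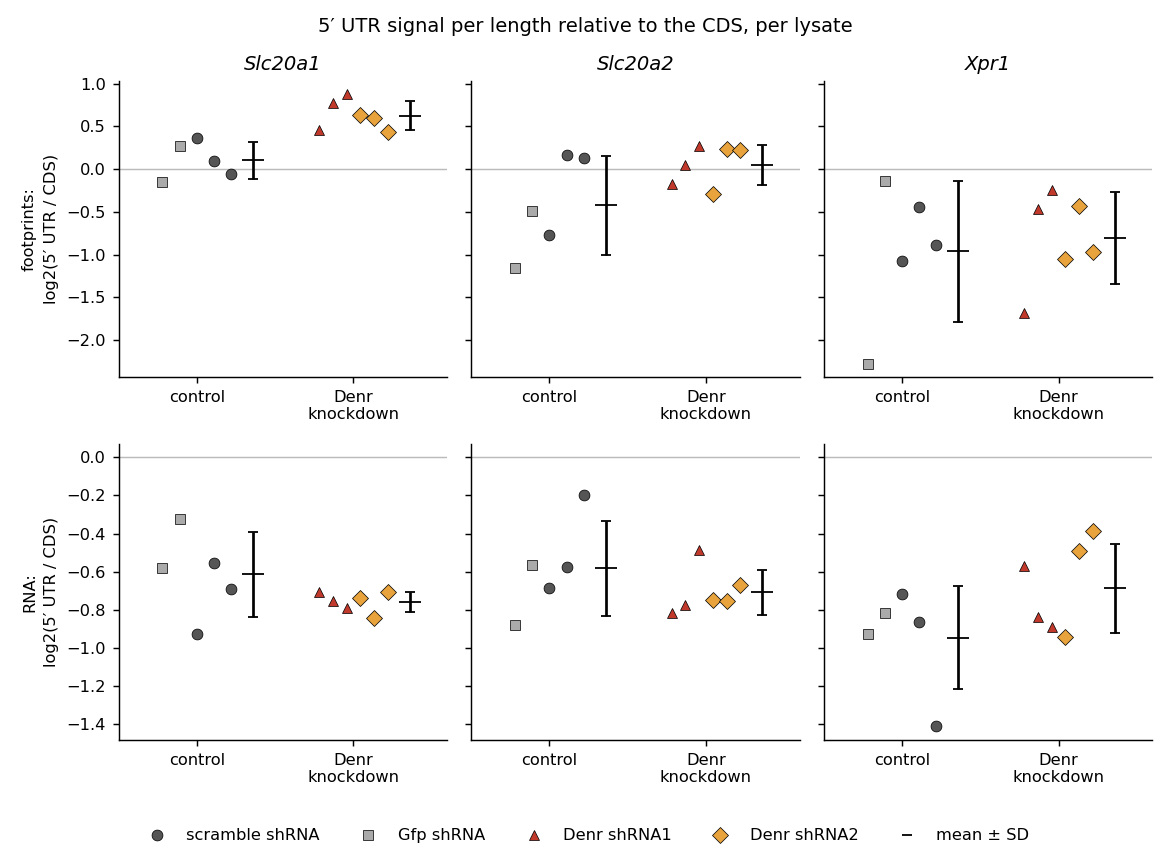
Log2 ratio of 5′ UTR to CDS per length in footprints (top) and in RNA (bottom) for each gene in 11 lysates, with the mean and SD of 5 control and 6 knockdown lysates. For Slc20a1 the footprint ratio lies between 0.43 and 0.87 in knockdown and between -0.15 and 0.36 in control lysates, while the RNA ratios of the groups overlap.

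The 2 Denr shRNAs were also fitted as groups of their own against the 5 controls, which both contrasts share. For Slc20a1, TE differed by -0.43 with shRNA1 and by -0.32 with shRNA2 (adjusted p = 0.492 and 0.460), the 5′ UTR ratio by 0.60 and 0.45 (adjusted p = 0.127 and 0.276) and RNA by 0.32 and 0.10 (adjusted p = 0.101 and 0.627). The shRNAs did not differ detectably from each other for this gene, with shRNA2 minus shRNA1 at 0.11 in TE (adjusted p = 0.972) and -0.22 in RNA (adjusted p = 0.414), and Gfp minus scramble shRNA was 0.06 in TE (SE 0.14). For Slc20a2, CDS footprints fell by 0.35 with shRNA1 (adjusted p = 0.0520, in a contrast with 17.7% of genes called) and differed by -0.01 with shRNA2 (adjusted p = 0.946). Its RNA differed by -0.25 with shRNA1 and by 0.022 with shRNA2 (adjusted p = 0.374 and 0.956), and its TE by -0.10 and -0.036 (adjusted p = 0.9996 and 0.980). The difference between the shRNAs in CDS footprints was 0.33 (adjusted p = 0.128), and the shRNA1 value did not pass when those lysates were fitted with the controls alone (adjusted p = 0.109). With the replicate number in the fit of all groups, the shRNA1 value was -0.31 (limma, adjusted p = 0.00555). In that contrast 1495 genes were called lower and 1655 higher of 10516. For Xpr1, RNA differed by -0.08 with shRNA1 and by 0.24 with shRNA2 (adjusted p = 0.843 and 0.488) and TE by 0.04 and -0.20 (adjusted p = 0.9996 and 0.879).

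**Figure D5:**
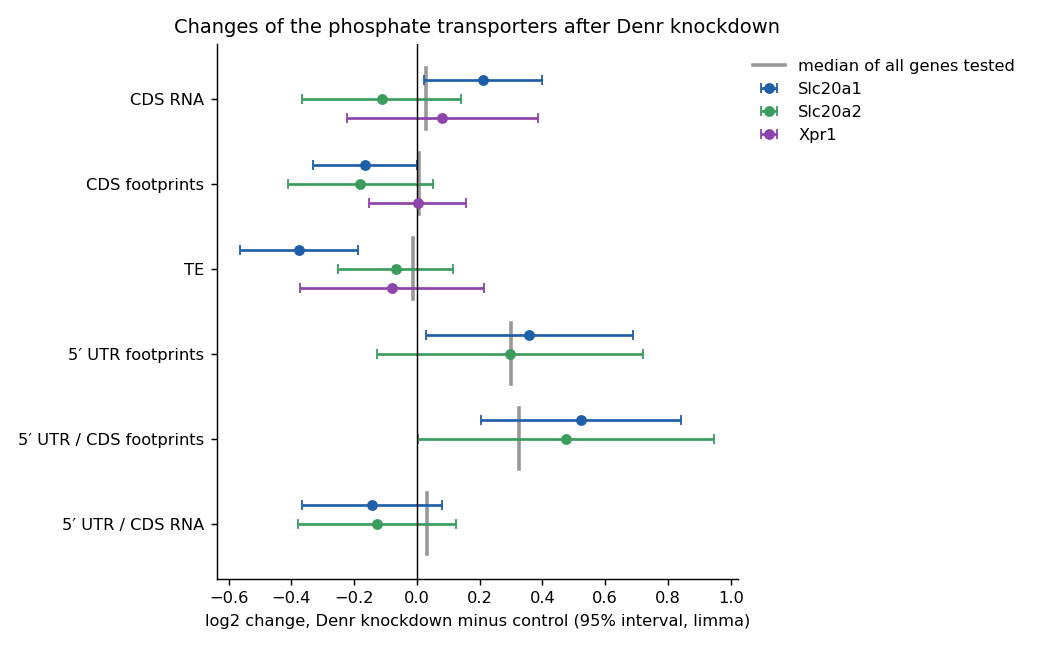
Log2 change between knockdown and control with its 95% interval from limma for each gene and measure, and the median over all genes tested as a grey bar. The TE of Slc20a1 (-0.38) lies below that of Slc20a2 (-0.07) and Xpr1 (-0.08), whereas the 5′ UTR over CDS footprints of Slc20a1 (0.52) and Slc20a2 (0.48) lie side by side; the 5′ UTR of Xpr1 was too thinly covered for this fit.

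The genes whose log2 TE followed that of Slc20a1 most closely over the 11 lysates were Rangrf (Pearson r = 0.93), a factor that binds the nuclear transport GTPase Ran, Rbm19 (0.93), an RNA-binding protein of ribosome biogenesis, Tet3 (0.92), a 5-methylcytosine dioxygenase, Micall2 (0.92) and the zinc finger gene Zbtb25 (0.90), of 10146 genes compared. Slc20a2 had r = 0.53 with Slc20a1 and was its 993rd gene in that order, and Xpr1 had -0.13. Closest to Slc20a2 were Midn, Wdr91 and Ptgis (0.95 to 0.93), and closest to Xpr1 were Luzp1, Dab2 and Asxl2 (0.96), while Slc20a2 and Xpr1 had r = -0.66 with each other. These correlations are a description, since the points share libraries, depth and normalization and the best of many genes was taken.

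Among 27 measured genes of 4 other lists of phosphate handling, 2 were called in RNA, 3 in CDS footprints and none in TE, beside 3.55%, 10.0% and 0.475% of all genes, so these counts give no result about the lists. Of 16 other phosphate transporters 6 were measured and none was called in RNA, CDS footprints or TE by limma, with 1 of the 6 (Slc37a3) at an unadjusted p under 0.05 in each, where 16.1%, 23.6% and 6.66% of all genes were. The mitochondrial phosphate carrier Slc25a3 was the most abundant, at 777 ± 48.0 RPKM in control RNA and 769 ± 56.6 in knockdown RNA, with a TE difference of -0.07 (SE 0.072), and the ATP-Mg/phosphate carrier Slc25a24 followed at 113 ± 10.8 and 99.7 ± 9.39 RPKM with 0.04 (SE 0.079). Slc37a3, a sugar phosphate exchanger family member that was chosen after its values were seen, had a difference of 0.37 in RNA (SE 0.11, adjusted p = 0.118) and of -0.34 in footprints (SE 0.13, adjusted p = 0.147). Its TE difference was -0.71 (SE 0.15, adjusted p = 0.101), larger than that of Slc20a1, at only 3.25 ± 0.605 RPKM of footprints in knockdown cells. The median TE difference of the 6 was -0.11 beside -0.01 over all genes.

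Of 13 enzymes of inositol pyrophosphate metabolism, which make and degrade the ligands of the Xpr1 SPX domain, 10 were measured and Ipmk alone was called. Ipmk, the inositol polyphosphate multikinase early in the pathway, fell from 95.7 ± 4.55 to 79.2 ± 6.87 RPKM in RNA (log2 -0.27, adjusted p = 0.0737) and from 25.8 ± 1.45 to 18.4 ± 1.42 in footprints (log2 -0.49, adjusted p = 0.00268). The kinases Ip6k1, Ip6k2, Ppip5k1 and Ppip5k2, which attach the pyrophosphate groups, had adjusted p of at least 0.408 in RNA and 0.520 in footprints. Of 8 genes of pyrophosphate and phosphate release 6 were measured, and Prune1, an exopolyphosphatase, rose in footprints from 18.2 ± 1.97 to 22.2 ± 1.62 RPKM (log2 0.29, adjusted p = 0.0526).

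Of 11 genes of systemic phosphate control, with the Xpr1 partner Kidins220 among them, 5 were measured. Vdr, the vitamin D receptor, fell from 23.6 ± 3.50 to 15.3 ± 1.59 RPKM in RNA (log2 -0.62, adjusted p = 0.0125) and from 52.9 ± 4.73 to 34.4 ± 2.49 in footprints (log2 -0.62, adjusted p = 0.000671), beside a TE difference of 0.00052 (SE 0.085). Kidins220 differed by 0.02 in RNA (SE 0.097) and by 0.06 in footprints (SE 0.071). In TE no gene of the 4 lists was called by limma, with Ipmk and Slc37a3 at an unadjusted p under 0.05 among the 27 measured, beside 0.475% called and 6.66% at that p over all genes.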

How the data were processed

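NIH3T3 lysates (6 Denr knockdown, 5 control) were profiled by RPF-seq and RNA-seq. The authors deposited RPKM values of CDS and 5′ UTR per gene and library. Before that, the authors removed ribosomal and transfer RNA reads, aligned the rest to cDNA and then to the genome (GRCm38), assigned footprints by their presumed A-site, dropped genes with few reads and applied the upper-quartile scaling of edgeR to RPF-seq and RNA-seq separately, so that TE is relative within this data set. The submitters' processing notes name Bowtie2 2.2.1, TopHat2 2.0.11 and Cufflinks 2.2.1. Replicates were not pooled.

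Whole reads behind all 231352 CDS and 228800 finite 5′ UTR values were recovered from their steps and used for depth, read filters and an alternative fit. The smallest length that gave whole reads was taken. Of 2568 genes with a single annotated coding structure and a recovered 5′ UTR length, 2069 had the annotated length, which limits the recovered counts. Knockdown and control were compared with limma 3.58.1 (lmFit, eBayes with trend) on log2(RPKM + 0.1) over all genes, with Benjamini-Hochberg adjustment at an FDR of 0.1; fold changes are on that scale and understate changes of low genes. Count models were not used as the main test because the unit is RPKM. Only the limma fit was tested on simulated data. The p-values measure the spread between dishes of a single cell line. Differences between transporters were tested by exact permutation over lysates. uORFs were searched in GENCODE transcripts of GRCm38.

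The transporters and gene lists were chosen with earlier results of these data known. Beyond the transporters, genes were named if past the FDR, otherwise as the 2 most abundant in control RNA, or as the nearest in TE (5 for Slc20a1, 3 for the others); Slc37a3, Kidins220, Ip6k1, Ip6k2, Ppip5k1 and Ppip5k2 stand outside this rule and were named after their values were seen. Alternatives were other pseudocounts, filters, centring, variance models, voom, an interaction fit, single shRNAs or controls, the replicate block and each lysate left out.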

Additional observations from a re-analysis of the deposited data

How the results depend on the processing

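The TE difference of Slc20a1 kept its sign in all 22 alternatives (-0.43 to -0.32) and passed the FDR in 2, at -0.38 without the variance trend and at -0.38 with voom on recovered reads. Its 5′ UTR over CDS footprint ratio kept its sign in all 21 and passed in 13; it did not with the RPKM filter (0.52), shRNA1 alone (0.60), shRNA2 alone (0.45), scramble shRNA alone as control (0.49) or when 1 of 4 lysates was left out (range over lysates left out 0.46 to 0.59). Its 5′ UTR footprints passed with the replicate block (0.37) and without Denr shRNA2 replicate 3 (0.41), and ranged from 0.29 to 0.41 over lysates left out and from 0.23 (shRNA2 alone) to 0.49 (shRNA1 alone) over all 22 alternatives. The cause was not tested. With 12 to 36 footprints on its 5′ UTR per library, depth limits the ratio of Xpr1.

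The TE gap between Slc20a1 and Slc20a2 passed 0.05 in 15 of 17 alternatives; with shRNA1 alone (-0.33) or shRNA2 alone (-0.29) the exact p was 0.0179, the smallest that 3 against 5 lysates allow (adjusted 0.0714). Their gap in the 5′ UTR ratio was -0.034 with shRNA2 alone and -0.13 to 0.20 with lysates left out. Values near 0 turned sign: Slc20a2 RNA (0.022 with shRNA2 alone), Xpr1 RNA (-0.077) and TE (0.043) with shRNA1 alone, and Xpr1 CDS footprints with shRNA1 alone (-0.034), median centring (-0.00064), voom (-3.58e-05) and lysates left out (-0.039 to 0.028).

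Genes called were, over lysates left out, 139 to 734 in RNA, 484 to 1946 in CDS footprints, 14 to 72 in TE, 383 to 1745 in 5′ UTR footprints and 38 to 1773 in the 5′ UTR ratio. Scramble shRNA alone as control gave 940 in RNA, 2651 in CDS footprints, 10 in TE and 514 in the ratio. With shRNA1 alone 159 were called in RNA, 1 in TE, 411 in 5′ UTR footprints and 5 in the ratio, and with shRNA2 alone 1 in 5′ UTR footprints and 9 in the ratio. The RPKM filter gave 131 in the ratio, and 5′ UTR footprints over 5′ UTR RNA gave 4.

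Lysates of different shRNAs share replicate numbers, and most such pairs, though not every one, deviated together. Of 15 pairs with the same number, 10 in RNA, 13 in CDS footprints and 10 in TE correlated above 0.1. Of 30 pairs with different numbers 5, 4 and 4 did. The mean r was 0.33, 0.18 and 0.23 with the same number and -0.16, -0.09 and -0.11 with different numbers. In these measures 7, 9 and 9 of 11 lysates correlated best with their own number. Deviations were taken from the mean of each shRNA, so they cancel within it. Positive r with the same number thus goes with negative r with different numbers. The pairs with different numbers are therefore no independent reference. The main fits did not include the replicate number. With the replicate block 1003 genes were called in RNA, 1940 in CDS footprints, 2289 in 5′ UTR footprints and 2418 in the 5′ UTR ratio. The fall of Slc20a2 CDS footprints with shRNA1 passed with and without the block (-0.31 with it, limma, adjusted p = 0.00555). Under the block, Slc20a1 RNA with shRNA1 (0.34, adjusted p = 0.0168), shRNA2 minus shRNA1 in Slc20a2 CDS footprints (0.33, adjusted p = 0.0111) and in Xpr1 RNA (0.32, adjusted p = 0.0927) passed, as did, with shRNA1, the 5′ UTR ratio of Slc20a1 (0.61, adjusted p = 0.0359) and of Slc20a2 (0.42, adjusted p = 0.0716) and the 5′ UTR footprints of Slc20a1 (0.50, adjusted p = 0.0429), and, with shRNA2, those of Slc20a2 (0.45, adjusted p = 0.0619). Over both shRNAs Slc20a2 passed in the ratio (0.42, adjusted p = 0.0559), and CDS footprints turned to -0.021 for Xpr1 and, for Slc20a2, to 0.018 with shRNA2 and -0.021 for Gfp minus scramble shRNA, which for Slc20a1 was -0.0088 and for Slc20a2 RNA -0.023. Many genes were called in these contrasts under the block. With shRNA1 they were 578 lower and 1290 higher of 10516 in RNA and 1495 and 1655 in CDS footprints. Of 5175 genes, 11 and 2082 were called in the ratio and 34 and 2314 in 5′ UTR footprints. With shRNA2, 33 and 1418 were called in 5′ UTR footprints. Between the shRNAs, 874 and 938 were called in CDS footprints and 507 and 458 in RNA. The passes are no result particular to the transporters.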
